A study of Caenorhabditis elegans with 357 samples.

Results

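The genes described are 7 regulators of oocyte growth and maturation of the nematode Caenorhabditis elegans, rme-2, puf-5, oma-1, oma-2, spn-4, mex-3 and pos-1, out of 19397 genes listed in the expression tables of the series. They were chosen by name, as genes known for work in the oocyte or in the mRNA that the oocyte hands to the embryo, and all 7 were found in the tables of both strains. The study sequenced polyA RNA of single animals in the fourth larval stage (L4), with 1 library for each animal and the minutes that the animal had spent in L4 as its label. Of 357 animals, 164 were tph-1 animals of strain MT15434, genotype tph-1(mg280), a mutant of the tryptophan hydroxylase that makes serotonin, collected between 9.6 and 596.0 min of L4. All others were N2, the wild-type laboratory strain, collected between 10.7 and 599.2 min. All animals of both strains were hatched from bleached eggs, kept 1 to an arena on agar with UV-killed OP50 bacteria and imaged before lysis. The labels give neither the sex of an animal nor its oocytes, and the value of a gene is a total over the whole body. With 100 min bins in time order, there were 18, 29, 42, 28, 26 and 21 tph-1 animals and 23, 26, 32, 35, 49 and 28 N2 animals.

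The germ line of a C. elegans hermaphrodite makes sperm first and then switches to oocytes, the first of which grow in the proximal gonad near the end of L4 and in the young adult. A growing oocyte takes up yolk made in the intestine, and it stores mRNA for the embryo under RNA-binding proteins that keep much of that mRNA untranslated until maturation or fertilisation. The 7 genes cover both sides of this programme. RME-2 is the yolk receptor of the oocyte surface, a member of the LDL receptor family. PUF-5 is an RNA-binding protein of the PUF family that acts in late oogenesis, and OMA-1 and OMA-2 are CCCH zinc finger proteins that act redundantly and without which oocytes do not mature. SPN-4 (with an RNA recognition motif), MEX-3 (with KH domains) and POS-1 (with CCCH zinc fingers) control the translation of maternal mRNA in the oocyte and early embryo.

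In the WBcel235 annotation the 7 genes lie on 4 chromosomes. rme-2 (WBGene00004374) is at chromosome IV, 5470026 to 5473174, and oma-1 (WBGene00003864) at chromosome IV, 8888976 to 8890999. puf-5 (WBGene00004241) is at chromosome II, 8575541 to 8577787, and mex-3 (WBGene00003229) at chromosome I, 127285 to 134270. Chromosome V holds oma-2 (WBGene00003865) at 8029439 to 8031214, pos-1 (WBGene00004078) at 8414086 to 8415254 and, on the minus strand, spn-4 (WBGene00004984) at 6783187 to 6784903. The other genes lie on the plus strand. Only spn-4 overlaps another annotated gene, ZC404.15 on the opposite strand. ZC404.15 averaged 1.33 RPM in tph-1 animals and 0.771 RPM in N2 animals, so it was low beside spn-4, although counting is not stated to have used strand.

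Levels are in RPM, a unit in which the authors set every library to the same total over all listed genes. The libraries held 437993 to 5175666 reads in tph-1 (median 1764815) and 587469 to 11544404 in N2 (median 2922062). The tph-1 transcript itself had a median of 1.81 RPM in tph-1 animals (range 0 to 19.3, with 28 animals at 0), against 2.73 RPM in N2 animals (range 0 to 26.9, with 12 animals at 0). The labels do not say which part of the gene mg280 removes, so this does not check the strain labels. The number after the strain in each title splits the animals into 4 tph-1 and 8 N2 sets, each of 1 strain. The labels do not define these sets, so they were kept as a term in every fit within a strain and taken as the units of the strain comparison. N2 sets 6, 7 and 8 hold no animal under 200 min, and N2 set 2 holds none from 400 min.

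All 7 genes had at least 1 read in every one of the 357 animals, also in the first 100 min. Embryos in the animals would bring zygotic transcripts. The summed level of 8 zygotic embryo markers in the last 100 min was 10.3 to 46.9 RPM in tph-1 animals (median 21.7) and 6.48 to 63.98 RPM in N2 animals (median 19.3), with higher medians, 51.1 and 28.7 RPM, in the first 100 min. Most of this sum was elt-7, with a median over all animals of 13.8 RPM in tph-1 and 14.5 RPM in N2. tbx-38 had medians of 3.82 and 1.92 RPM, the other 6 had medians from 0 to 1.65 RPM, and med-1 was at a median of 0 RPM in both strains.

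The yolk receptor rme-2 was the most abundant of the 7 in RPM in the last 100 min of L4, and the gene with the clearest separation of late from early animals. In tph-1 its level was 89.8 to 471 RPM (median 179.6) in the last 100 min, against 7.69 to 42.9 RPM (median 21.6) in the first 100 min. In N2 it was 74.7 to 528 RPM (median 199.6), against 11.5 to 49.6 RPM (median 28.7). The first and last bins did not overlap in either strain. The share of all genes with such a separation was not counted, here or for the genes and marker sums below. The ratio of the last median to the first was 8.33 in tph-1 and 6.95 in N2. Medians of the 6 bins in time order were 21.6, 28.4, 30.1, 42.7, 119.8 and 179.6 RPM in tph-1 and 28.7, 23.5, 34.9, 44.02, 85.7 and 199.6 RPM in N2. Most of the gain thus stood in the last 2 bins.

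puf-5 started lowest of the 7 and had the largest fitted rise. In tph-1 it reached 24.1 to 193.6 RPM (median 56.8) in the last 100 min, against 1.80 to 33.1 RPM (median 8.88) in the first. In N2 it reached 17.6 to 489.6 RPM (median 72.5), against 2.53 to 11.7 RPM (median 5.65). All 28 N2 animals of the last bin lay above all 23 of the first, and in tph-1 19 of 21 lay above the highest early animal. The ratio of medians was 6.39 in tph-1 and 12.8 in N2. The 4 bins before 400 min had medians between 5.66 and 9.53 RPM in tph-1 and between 5.65 and 9.82 RPM in N2, so puf-5 held a low level for most of the stage.

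The paralogs oma-1 and oma-2 changed less. oma-1 was at 6.57 to 46.5 RPM (median 22.4) in tph-1 animals of the last 100 min, against 2.56 to 20.2 RPM (median 10.7) in the first. In N2 oma-1 was at 11.3 to 131 RPM (median 34.2), against 3.06 to 35.5 RPM (median 14.9). oma-2 was at 17.5 to 90.9 RPM (median 33.9) in tph-1, against 7.69 to 48.6 RPM (median 19.4), and at 11.8 to 283 RPM (median 44.1) in N2, against 4.81 to 41.8 RPM (median 15.3). The early and late bins of both genes overlapped in both strains: above the highest early animal lay 13 of 21 late tph-1 animals and 13 of 28 late N2 animals for oma-1, and 3 of 21 and 15 of 28 for oma-2. In tph-1 the median of oma-2 was lowest between 300 and 400 min, at 11.7 RPM, below its first bin.

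The regulators of maternal mRNA, spn-4, pos-1 and mex-3, had early medians from 11.5 to 32.8 RPM. spn-4 was at 31.4 to 201.7 RPM (median 73.9) in tph-1 animals of the last 100 min, against 10.6 to 32.1 RPM (median 20.3) in the first, and at 30.04 to 590 RPM (median 103) in N2, against 3.94 to 56.8 RPM (median 32.8). The late value lay above the highest early animal in 20 of 21 tph-1 animals and 24 of 28 N2 animals. pos-1 was at 24.8 to 190.2 RPM (median 59.3) in tph-1, against 2.71 to 44.2 RPM (median 20.3), and at 16.4 to 518 RPM (median 89.9) in N2, against 4.66 to 56.04 RPM (median 11.5). mex-3 had the smallest ratio of medians in tph-1, 1.61, and 2.60 in N2. It was at 26.4 to 87.2 RPM (median 44.5) in tph-1, against 10.9 to 61.8 RPM (median 27.7), and at 20.97 to 219 RPM (median 72.6) in N2, against 10.5 to 60.1 RPM (median 27.98). The ranges of pos-1 and mex-3 overlapped between early and late in both strains. As with oma-2, the tph-1 medians of both were lowest between 300 and 400 min, 9.10 RPM for pos-1 and 16.3 RPM for mex-3.

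Set per kilobase of exon, so that genes can be compared, the order of the levels in the last 100 min differed from that in RPM. In tph-1 the medians were 62.6 RPM per kb for rme-2, 53.1 for pos-1, 48.5 for spn-4, 27.4 for puf-5, 21.96 for oma-2, 21.8 for mex-3 and 12.4 for oma-1. In N2 they were 80.5 for pos-1, 69.6 for rme-2, 67.6 for spn-4, 35.6 for mex-3, 35.03 for puf-5, 28.6 for oma-2 and 18.98 for oma-1. rme-2, pos-1 and spn-4 were thus the 3 highest and oma-1 the lowest in both strains. The ranges over animals of neighbours in these orders overlapped throughout, so neither the order among the 3 highest nor that among puf-5, oma-2 and mex-3 stands out from the spread between animals.

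**Figure D1:**
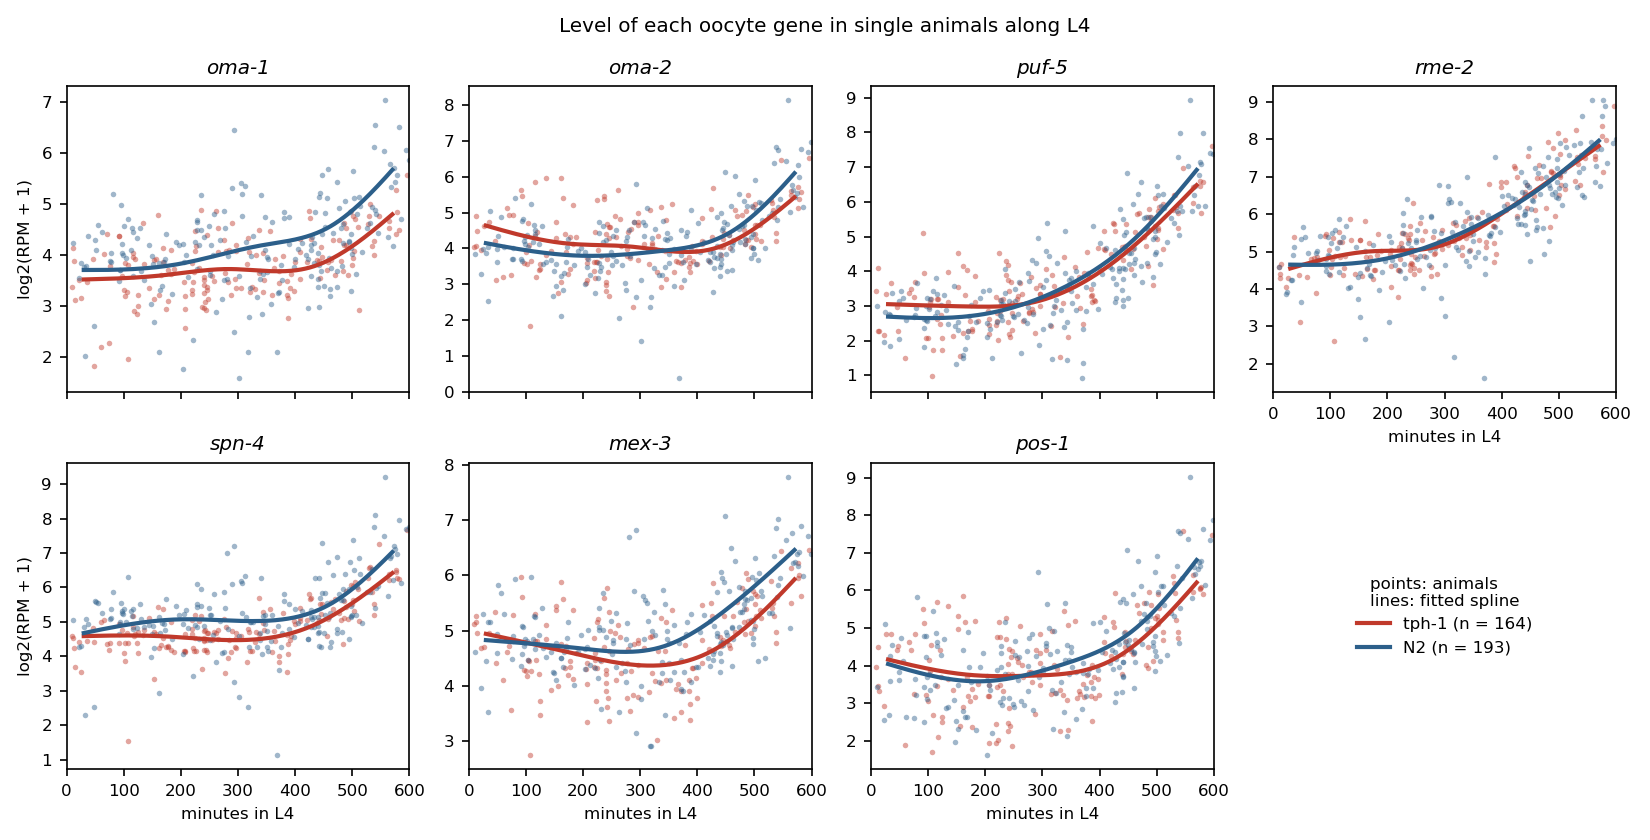
Level of the 7 genes, as log2(RPM + 1), against minutes in L4, with 1 point for each tph-1 animal (red) and each N2 animal (blue) and the fitted spline of each strain as a line. All curves are highest at the end of the fitted range at 570 min, with the largest rises for puf-5 and rme-2, whose curves already climb between 300 and 400 min.

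Whether each gene changed along L4 was tested with limma on log2(RPM + 1), as a natural spline of the minutes with set as a term, and a gene was called at an adjusted p under 0.05 and a fitted range of at least 1 log2 unit between 30 and 570 min. All 7 changed in both strains. A call here is common: of all 14293 genes tested, 74.9% were called in tph-1 and 51.1% in N2. The adjusted p ran from 8.43e-39 for rme-2 to 7.91e-07 for oma-2 in tph-1, and from 3.15e-32 for puf-5 to 7.94e-10 for oma-1 in N2. The rise from the minimum of the fitted curve to its later maximum was 3.50 log2 units in tph-1 and 4.27 in N2 for puf-5, 3.27 and 3.31 for rme-2, and 2.49 and 3.23 for pos-1. It was 1.95 and 2.35 for spn-4, 1.56 and 1.84 for mex-3, 1.53 and 2.31 for oma-2, and 1.28 and 1.96 for oma-1. In every case the maximum stood at 570 min, the end of the fitted range, so no plateau was seen within L4 and the full rise may be larger. Over whole animals, more oocytes and more RNA in each oocyte cannot be told apart.

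The markers of other cells moved over the same minutes, and their part in these results was not tested. The summed level of 11 general germ line markers was 467 to 1442 RPM (median 895) in tph-1 animals of the last 100 min, against 346 to 893 RPM (median 635) in the first, and 661 to 1994 RPM (median 1140) in N2, against 182 to 1556 RPM (median 786). None of the 11 had a median of 0 RPM in either strain. The summed level of 12 sperm markers was 2166 to 15730 RPM (median 8640) in tph-1, against 7.72 to 110.4 RPM (median 51.6), and 1743 to 11250 RPM (median 6158) in N2, against 2.39 to 282.5 RPM (median 17.98). The summed sperm markers did not overlap between the first and last bins in either strain, while the sums of the general germ line markers did. Single sperm markers differed: the fitted rise was 9.22 log2 units in tph-1 and 10.2 in N2 for msp-31, a major sperm protein gene, and 0.85 and 2.05 for spe-9.

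The half-rise minute, the minute at which a fitted curve lies midway between its minimum and its later maximum on the log2 scale, put rme-2 first, puf-5 second and oma-2 last in both strains, while the 4 genes between differed in order. It is a description without a test, and its error is the jackknife SE over sets. rme-2 came first, at 417 ± 25.99 min in tph-1 (4 sets) and 430 ± 21.5 min in N2 (8 sets). puf-5 came next, at 460 ± 11.3 min in tph-1 and 452 ± 16.5 min in N2. In all 4 tph-1 and all 8 N2 fits that left out 1 set, rme-2 was first and puf-5 second. mex-3 stood at 495 ± 18.5 and 470 ± 11.05 min, pos-1 at 494 ± 6.17 and 479 ± 20.3 min, oma-1 at 499 ± 18.5 and 479 ± 20.3 min, and spn-4 at 491 ± 3.97 and 492 ± 16.1 min, in tph-1 and N2 in this order. oma-2 was last, at 510 ± 8.03 min in tph-1 and 500 ± 14.5 min in N2, and it stayed last in 3 of 4 and 7 of 8 of those fits. This order is given for the log2 scale only. Over all settings, among them half-way on the linear scale, the latest N2 half-rise was 503 min for rme-2, 501 min for mex-3 and 523 min for puf-5. In tph-1 it was 491, 516 and 518 min for the same genes.

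The lag from one gene to another was less certain than their order on the log2 scale. puf-5 followed rme-2 by 43 ± 23.9 min in tph-1 and 22 ± 11.7 min in N2, within 2 standard errors of 0 in both. oma-2 followed rme-2 by 93 ± 25.0 min in tph-1 and 70 ± 19.03 min in N2, over 3 standard errors. oma-2 followed its paralog oma-1 by 11 ± 14.4 and 21 ± 14.1 min, which is within the error. The median over the 7 genes was 494 ± 4.90 min in tph-1 and 479 ± 16.8 min in N2, a gap no larger than the N2 error. Every fit that left out 1 tph-1 set gave a lower tph-1 median, 483 to 491 min, so its error may be too small. Rescaling the libraries by size factors moved the medians of 494 and 479 min to 444 and 429 min. The level at which a rise is called to begin matters more: the fitted curves passed 10 RPM at a median of 294 min in tph-1 and 188 min in N2.

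**Figure D2:**
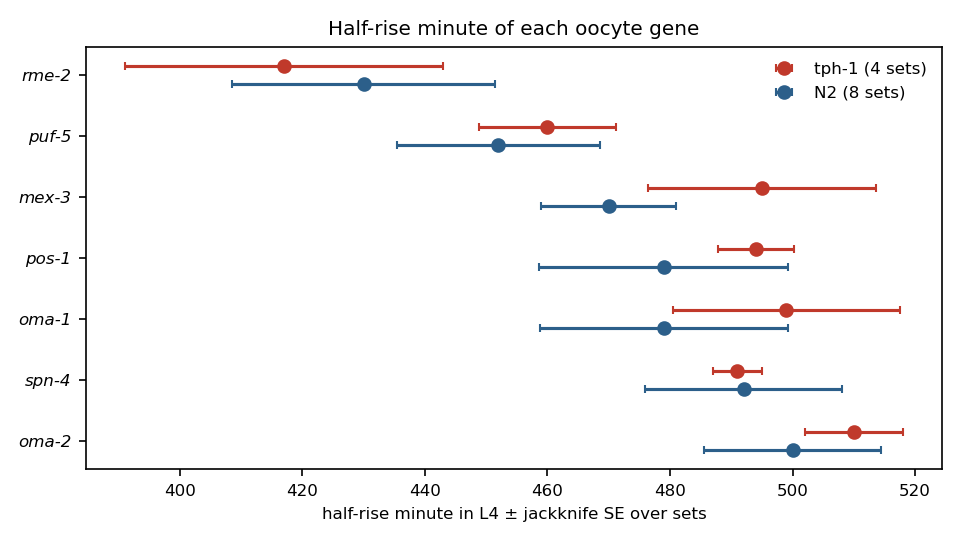
Half-rise minute of each gene in tph-1 (red, 4 sets) and N2 (blue, 8 sets), with the jackknife SE over sets as bars. rme-2 stands first at 417 min in tph-1 and 430 min in N2, and oma-2 last at 510 and 500 min.

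Steps between neighbouring 100 min bins placed the called changes after 400 min. A step was called at an adjusted p under 0.05 and at least 1 log2 unit, and none of the 7 genes was called in either direction at the 3 steps before 400 min in either strain. In time order, the shares of all genes called higher at these steps were 1.61%, 4.06% and 4.69% in tph-1 and 1.61%, 5.58% and 7.60% in N2, and the shares called lower were 2.04%, 2.45% and 4.23% in tph-1 and 1.18%, 3.26% and 2.97% in N2. Among those 3 steps only rme-2 passed the adjusted p alone, at 300 to 400 min in tph-1, with 0.48 ± 0.14 (adjusted p = 0.00238). By the adjusted p alone 4.30%, 10.1% and 9.70% of all genes were higher in tph-1 and 3.48%, 10.6% and 12.0% in N2. At an unadjusted p under 0.05, N2 had 1 gene higher at each of the steps to 200 to 300 min, rme-2 with 0.49 ± 0.23, and to 300 to 400 min, puf-5 with 0.48 ± 0.24. edgeR was not run on steps. Leaving out N2 set 4 made 2 genes called at the N2 step to 300 to 400 min.

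At the step to 400 to 500 min, puf-5, rme-2 and pos-1 rose in tph-1, and puf-5 and rme-2 rose in N2. That is 3 of 7 genes in tph-1, where 4.51% of all genes were called higher, and 2 of 7 in N2, where 5.17% were. puf-5 rose by 1.58 ± 0.20 in tph-1 (adjusted p = 1.10e-11) and by 1.38 ± 0.19 in N2 (adjusted p = 6.47e-10). rme-2 rose by 1.19 ± 0.16 and 1.08 ± 0.19. pos-1 rose by 1.16 ± 0.25 in tph-1, and it had 0.93 ± 0.20 in N2, under the size required. By the adjusted p alone, all 7 genes were higher at this step in both strains, where 11.4% of all genes were in tph-1 and 12.5% in N2. The smallest values were those of oma-1, 0.47 ± 0.15 in tph-1 and 0.42 ± 0.18 in N2 (adjusted p = 0.0489). The N2 count fell to 1 with a pseudocount of 5, with bins shifted by 50 min, without N2 set 4, and without the 9 animals of low germ line signal described further on.

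At the last step, to 500 to 600 min, none of the 7 genes was called in tph-1 and 5 of 7 rose in N2, against 1.87% and 4.69% of all genes called higher. In N2 puf-5 rose by 1.57 ± 0.19, pos-1 by 1.42 ± 0.20, oma-2 by 1.24 ± 0.18, spn-4 by 1.16 ± 0.19 and rme-2 by 1.08 ± 0.19. In tph-1 the same step was 0.997 ± 0.21 for puf-5, 0.94 ± 0.27 for pos-1, 0.81 ± 0.15 for spn-4 and 0.67 ± 0.17 for rme-2, all past the adjusted p but under 1 log2 unit. By the adjusted p alone that is 4 of 7 genes in tph-1, where 5.91% of all genes passed, and 7 of 7 in N2, where 24.7% did. oma-1, oma-2 and mex-3 missed the adjusted p in tph-1, with 0.42 ± 0.16, 0.57 ± 0.22 and 0.41 ± 0.17 (adjusted p = 0.0707, 0.0721 and 0.0966). At an unadjusted p under 0.05, all 7 were higher in tph-1. The tph-1 count of 0 was 3 without tph-1 set 2, 1 without tph-1 set 3 or 4, and 2 with bins shifted by 50 min, so a count of 0 beside 5 is no measure of a strain difference, which was tested separately.

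**Figure D3:**
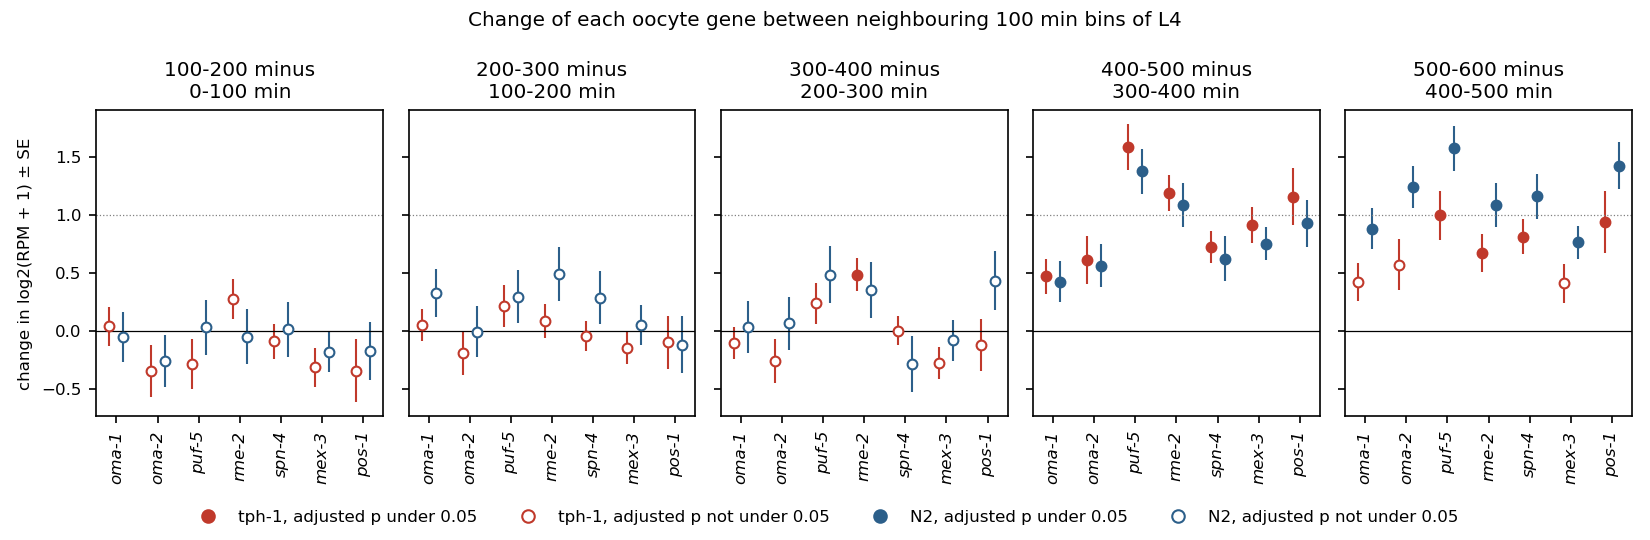
Change in log2(RPM + 1) from each 100 min bin of L4 to the next, ± SE, for the 7 genes in tph-1 (red) and N2 (blue), with filled points at an adjusted p under 0.05 and a dotted line at 1 log2 unit. Filled points stand at the last 2 steps, apart from rme-2 in tph-1 at 300 to 400 min, and all 7 genes are filled in both strains at the step to 400 to 500 min.

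Sets are not spread evenly over the minutes, so the last step was also read within sets. Sets 2 and 3 of tph-1 and sets 6 and 8 of N2 had at least 3 animals in both of the last bins, and in each of these 4 sets all 7 genes were higher on average in the last bin. In tph-1 set 3, rme-2 had a median of 179.6 RPM at 500 to 600 min (11 animals), against 70.9 RPM at 400 to 500 min (7 animals), and in tph-1 set 2 it had 177.4 RPM (9 animals), against 144.4 RPM (12 animals). In N2 set 6 its median was 238.8 RPM (10 animals), against 126.6 RPM (8 animals), and in N2 set 8 it was 158.5 RPM (14 animals), against 72.1 RPM (31 animals). For puf-5 the last and the earlier bin had 56.8 RPM against 30.4 RPM in tph-1 set 3, 56.7 RPM against 40.3 RPM in tph-1 set 2, 142.7 RPM against 50.2 RPM in N2 set 6 and 56.8 RPM against 16.2 RPM in N2 set 8. N2 set 6 stood above N2 set 8 in both bins for both genes.

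**Figure D4:**
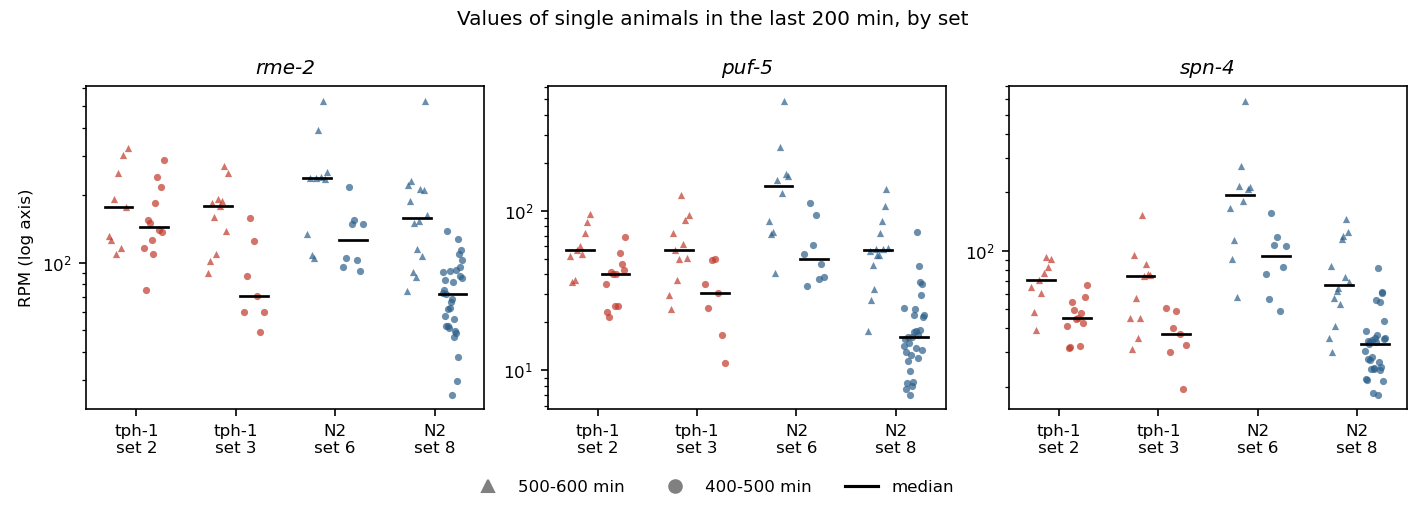
RPM of rme-2, puf-5 and spn-4, on a log axis, in single animals at 500 to 600 min (triangles) and 400 to 500 min (circles) of the 2 tph-1 and 2 N2 sets that cover both bins, with medians as lines. The median is higher in the last bin in all 4 sets for each gene shown.

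The change over the whole stage was taken as late (400 min or later) minus early (under 200 min). In tph-1, 3 of 7 genes rose by at least 1 log2 unit, where 10.1% of all genes did, and in N2 5 of 7 did, where 11.4% of all genes did. puf-5 rose by 2.33 ± 0.20 in tph-1 (adjusted p = 3.92e-22) and 2.41 ± 0.29 in N2 (adjusted p = 5.84e-13). rme-2 rose by 2.05 ± 0.16 and 2.06 ± 0.27, and pos-1 by 1.23 ± 0.24 and 1.40 ± 0.30. spn-4 and oma-1 rose in N2, by 1.12 ± 0.27 and 1.01 ± 0.24, and had 0.98 ± 0.14 and 0.61 ± 0.14 in tph-1. mex-3 had 0.60 ± 0.15 in tph-1 and 0.92 ± 0.20 in N2. oma-2 had 0.31 ± 0.20 in tph-1, which missed the adjusted p (0.124), and 0.87 ± 0.26 in N2. By the adjusted p alone 6 of 7 genes were higher late in tph-1 and 7 of 7 in N2, against 14.4% and 14.7% of all genes.

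Relative to the other genes of the library these changes are larger, since the median gene tested stood at -0.68 in tph-1 and -0.36 in N2 for late minus early. Rescaling the libraries by size factors moved those medians to -0.16 and -0.02 and the counts of genes that rose to 6 and 7 of 7, with 13.8% and 13.5% of all genes called higher. With edgeR on the recovered reads all 7 rose in both strains, where 15.1% of all genes did in tph-1 and 15.4% in N2, with 1.00 for oma-2 and 3.21 for puf-5 as the smallest and largest log2 changes in tph-1, and 1.40 and 3.29 for the same genes in N2. The N2 count changed with the setting. It was 3 without N2 set 3, 3 with no set term and 3 without the animals of low germ line signal, where oma-1 and spn-4 drop below 1 log2 unit. Only N2 sets 1, 3, 4 and 5 held both early and late animals, with 1 or 2 late animals each, and the part of this was not tested.

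Between the strains, no difference in level was called for any of the 7 genes. The test was limma on the levels of 4 tph-1 and 8 N2 sets fitted at a common minute, and of all genes 0.294% were called higher and 0.154% lower in tph-1. At an unadjusted p under 0.05 there were 2 of 7 genes, both lower in tph-1, and with edgeR on reads summed per set there were 0 called and 0 at that unadjusted p. oma-1 had a fitted log2 level of 3.79 ± 0.12 in tph-1 (SD, 4 sets) and 4.20 ± 0.34 in N2 (SD, 8 sets), a difference of -0.41 ± 0.17 (limma, unadjusted p = 0.0238, adjusted p = 0.137). The 4 tph-1 sets lay between 3.64 and 3.92. N2 sets 7 and 8, at 3.82 and 3.76, lay among them, and the other 6 N2 sets, from 4.07 to 4.85, lay above all 4. spn-4 had 4.83 ± 0.19 in tph-1 and 5.26 ± 0.41 in N2, a difference of -0.43 ± 0.19 (limma, unadjusted p = 0.0309, adjusted p = 0.149), again with N2 sets 7 and 8 among the tph-1 sets.

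The other 5 genes were nearer to each other. mex-3 had 4.75 ± 0.12 in tph-1 and 5.03 ± 0.32 in N2, a difference of -0.27 ± 0.16, and pos-1 had 4.18 ± 0.15 and 4.32 ± 0.48, a difference of -0.14 ± 0.21. For oma-2, rme-2 and puf-5 the differences were 0.05 ± 0.18, 0.03 ± 0.14 and 0.02 ± 0.19. Errors of this size leave room for strain differences in either direction, so a lack of calls does not show equal levels. The general germ line markers had lower medians in tph-1 than in N2 in all 6 bins, for example 591 RPM against 799 RPM at 200 to 300 min, with a median difference of -0.14 over the 11 genes and 0 of 11 called, and the median gene tested stood at -0.10. Their part in the lower values of oma-1 and spn-4 was not tested.

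The strain result depended on what was taken as the unit. With animals as units and no set term, oma-1 (-0.33 ± 0.07, adjusted p = 2.10e-05), spn-4 (-0.36 ± 0.08, adjusted p = 1.34e-05) and mex-3 (-0.24 ± 0.06, adjusted p = 0.000667) were called lower in tph-1, but animals of a set are then counted as independent, and 43.6% of all genes were called lower in that fit. With sets 1 to 4 of each strain alone, oma-1 and spn-4 were called lower, with differences of -0.45 ± 0.14 (adjusted p = 0.0257) and -0.42 ± 0.13 (adjusted p = 0.0320), where 21.4% of all genes were called lower. The counts of 3 and 2 of 7 are near these shares. N2 sets 5 to 8 are left out there, of which set 6 was the highest and sets 7 and 8 the lowest of N2 for both genes. Over all alternatives the adjusted p ran from 2.10e-05 to 0.530 for oma-1 and from 1.34e-05 to 0.591 for spn-4.

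**Figure D5:**
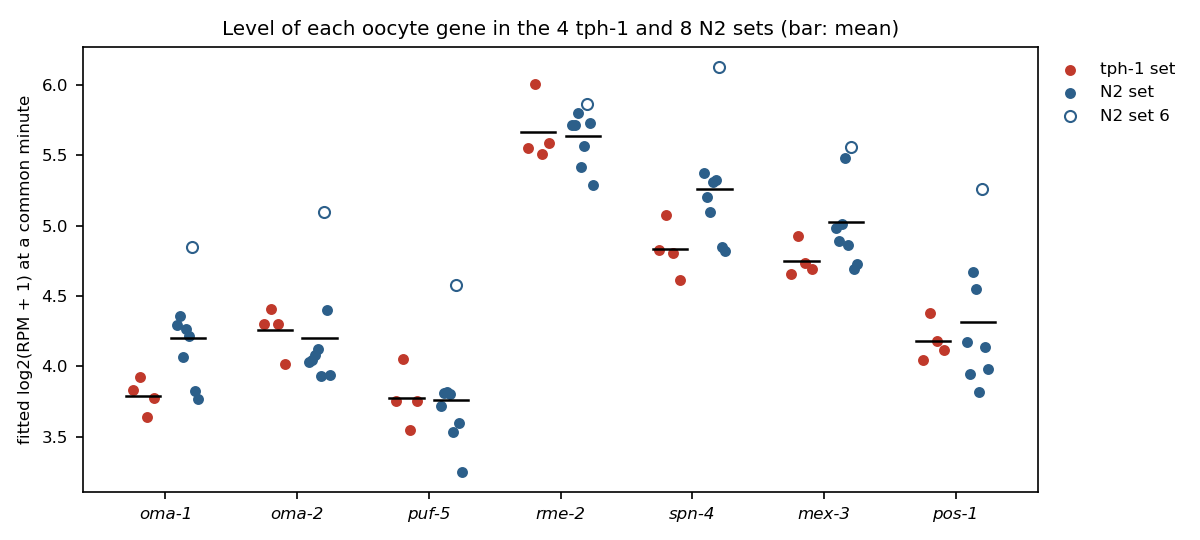
Level of each gene in the 4 tph-1 sets (red) and 8 N2 sets (blue), with the mean as a bar and N2 set 6 as an open circle. Levels are fitted log2(RPM + 1), as the mean from 30 to 570 min of a curve shared by all sets, which the axis calls a common minute. For oma-1 and spn-4, 6 of 8 N2 sets lie above all tph-1 sets and 2 lie among them, and N2 set 6 is the highest N2 set for every gene.

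No window of L4 gave a called strain difference either. In the early, middle and late windows 0 of 7 genes were called (all genes: 0.210%, 0.140% and 0.154% higher and 0.105%, 0.0140% and 0.0490% lower in tph-1), and 0, 1 and 0 genes had an unadjusted p under 0.05. That gene was spn-4 in the middle window, at -0.40 ± 0.15 (limma, unadjusted p = 0.0152, adjusted p = 0.168). The shapes of the curves were compared with a strain by spline interaction over animals, which called 0 of 7 genes (2.17% of all genes) and gave 0 at an unadjusted p under 0.05. The late minus early change in tph-1 less that in N2 was negative for all 7 genes, from -0.55 ± 0.33 for oma-2 and -0.40 ± 0.28 for oma-1 to -0.01 ± 0.31 for rme-2, each within 2 standard errors of 0. The late window had 3 tph-1 and 3 N2 sets, and there the sign of most differences depended on N2 set 6. Without set 6 the differences of oma-2, puf-5, spn-4, mex-3 and pos-1 changed from negative to positive. They then lay between 0.04 ± 0.19 for mex-3 and 0.36 ± 0.22 for puf-5. The count of 0 called did not change.

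Animals of the same minute and set differed in these genes together. After the spline and the set levels were removed, the residuals of the 21 pairs of genes correlated with a Pearson r of 0.363 to 0.856 in tph-1 (median 0.546, 164 animals) and 0.457 to 0.843 in N2 (median 0.727, all N2 animals). Spearman's rho ran from 0.318 to 0.837 in tph-1 and from 0.444 to 0.824 in N2. In a two-sided permutation test of animals within sets, every one of the 42 pairs had an adjusted p of at most 2.0e-05 for r and 6.0e-05 for rho, where 1.0e-05 is the smallest that 100000 resamples can give. For each pair, r was also taken without the 2 animals farthest from the median of 1 gene of the pair, chosen anew for each pair. These r values ran from 0.315 to 0.846 in tph-1 and from 0.438 to 0.829 in N2. Animals far out in the other gene alone were kept. Within sets, r was above 0 in every set for 20 of 21 pairs in tph-1 and 19 of 21 in N2.

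The closest pair was not the same in the strains. In tph-1 it was oma-2 with pos-1 (r = 0.856, rho = 0.837, 0.652 to 0.929 within sets), and in N2 it was oma-1 with spn-4 (r = 0.843, rho = 0.824, 0.648 to 0.934 within sets). The paralogs oma-1 and oma-2 had r = 0.655 (rho = 0.613) in tph-1 and r = 0.791 (rho = 0.724) in N2. rme-2 with pos-1 was among the loosest, with r = 0.402 in tph-1 and 0.457 in N2, and it was below 0 in 1 set of each strain. All values of an animal share its library total and the size of its germ line, so part of any such r may be common to many germ line genes, which was not tested. Whether the r values differ between strains was not tested.

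Single animals show both ends of this shared variation. The N2 set 6 animal at 558.0 min (3702908 reads) had the highest value of its bin for 6 of 7 genes, with 590 RPM of spn-4, 518 RPM of pos-1, 489.6 RPM of puf-5 and 283 RPM of oma-2. The next highest of the 28 animals had 273, 232, 253 and 125 RPM. For rme-2 it was second, with 527 RPM against 528 RPM. Earlier in the stage, the N2 set 4 animal at 293.1 min had the highest value of its bin for all but rme-2, with 87.2 RPM of oma-1 against 38.9 RPM in the next of 32 animals and 89.7 RPM of pos-1 against 34.5 RPM. Its rme-2, at 43.96 RPM, was eleventh. Without either animal no count of called genes in N2 changed by over 1.5 times.

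At the other end, 9 animals (2 of tph-1 and 7 of N2) had under 300 RPM in the 11 general germ line markers together. They included the lowest value of the strain for 6 of 7 genes in tph-1 and 6 of 7 in N2. The lowest of them, an N2 set 4 animal at 368.7 min with 3379193 reads, had 61.3 RPM of germ line markers, 0.296 RPM of oma-2, 0.888 RPM of puf-5, 2.07 RPM of rme-2 and 1.18 RPM of spn-4, against 539 RPM of 6 neuronal markers. Its mex-3, at 26.3 RPM, was at the median of its bin. Others of the 9 were not low for every gene. The tph-1 set 1 animal at 237.1 min, with 437993 reads, had 43.4 RPM of oma-2, against a bin median of 14.8 RPM. The N2 set 3 animal at 161.3 min had 20.5 RPM of pos-1, against a bin median of 10.5 RPM. Without the 9 animals the median half-rise stood at 492 min in tph-1 and 475 min in N2, and 0 of 7 genes differed between strains.

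Relatives of the 7 genes were described by their counts, and no test compares the lists with each other. Of 10 PUF genes tested, 5 rose late against early in each strain: puf-5 itself, puf-11, puf-3, puf-6 and puf-7. The other 5, puf-8, puf-9, puf-12, fbf-1 and fbf-2, were not called in either strain. puf-6 rose by 1.51 ± 0.18 in tph-1 and 1.37 ± 0.24 in N2 and puf-11 by 1.46 ± 0.15 and 1.60 ± 0.29, while the median of the list was 0.73 and 0.92. puf-6 and puf-7 are close copies, so their reads cannot be surely split. Of 10 CCCH zinc finger genes tested, 3 rose in tph-1 and 6 in N2. Among them mex-5 had 1.48 ± 0.16 and 1.28 ± 0.30, and moe-3, a relative of oma-1 and oma-2, had 1.21 ± 0.31 and 1.57 ± 0.39. The course of moe-3 was unlike that of the 7: in N2 its fitted curve had a half-rise at 263 min and was highest at 400 min. In tph-1 the curve of moe-3 was lowest at the end of the fitted range, so no half-rise was given. mex-5 acts in the polarity of the early embryo. The list medians were 0.79 and 1.09. Of 23 germ line RNA regulators, 2 rose in tph-1 (cey-2 and cey-3) and 3 in N2 (cey-2, gld-1 and spn-4), and 1, meg-1, fell in tph-1 by 1.03 ± 0.32. The list medians, 0.27 and 0.30, still stood above those of all genes. cey-2, a Y-box protein, rose by 1.94 ± 0.16 in tph-1 and 1.55 ± 0.28 in N2. All lists were chosen with earlier results of these data known, and the counts are set against the shares of all genes that were higher, 10.1% in tph-1 and 11.4% in N2, or lower, 23.6% and 8.19%.

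Of 23 genes of meiotic maturation signalling, 1 rose in each strain. This was the B-type cyclin cyb-1, with 3.18 ± 0.20 in tph-1 and 2.75 ± 0.33 in N2. Its half-rise on the log2 scale stood at 383 and 376 min, earlier than any of the 7. vab-1, the Eph receptor that binds sperm protein on the oocyte side, fell by 1.03 ± 0.14 in tph-1. The list median was -0.35 in tph-1 and -0.19 in N2. Of 12 genes of yolk uptake and endocytosis, rme-2 alone rose in both strains, while rme-6, dpy-23 and cup-4 fell in tph-1, with log2 changes of -1.18 ± 0.17, -1.003 ± 0.13 and -1.003 ± 0.27. Such falls, that of vab-1 included, were common in tph-1. There 23.6% of all genes were called lower, and the median gene tested stood at -0.68. Most of the list of yolk uptake and endocytosis works in every endocytic cell, and its medians were -0.35 and -0.26. The yolk proteins that RME-2 binds are made in the intestine, and their genes vit-2 and vit-6 rose by 4.00 ± 0.50 and 3.86 ± 0.44 in tph-1 and by 4.19 ± 0.68 and 4.66 ± 0.60 in N2.

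Of 11 genes of the eggshell and of egg activation, 7 rose in tph-1 and 6 in N2, with medians of 1.33 and 1.01. perm-4 and perm-2, of the permeability barrier of the egg, rose by 5.46 ± 0.33 and 5.38 ± 0.29 in tph-1 and by 5.11 ± 0.42 and 5.37 ± 0.38 in N2. Their half-rise was at 381 and 412 min in tph-1 and 353 and 369 min in N2. egg-1, an LDL receptor-like protein of the oocyte surface, rose by 1.64 ± 0.17 and 2.10 ± 0.29. In the order of half-rise minutes, the sperm markers came first, with a median of 343 min over 11 genes in tph-1 and 328.5 min over 12 genes in N2. The eggshell genes had medians of 456.5 min (10 genes) and 464 min (11 genes), and the 7 oocyte genes 494 and 479 min. The highest sperm value, 368 min in tph-1 and 377 min in N2, lay below the earliest of the 7 genes, rme-2. This order holds for the log2 scale only, where a larger rise puts midway at a lower share of the final level. msp-31 rose by 9.22 and 10.2 log2 units and rme-2 by 3.27 and 3.31. Half-way on the linear scale was not worked out for the sperm and eggshell genes.

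The genes whose fitted curves were most like the mean curve of the 7, among 2414 genes that rose by at least 1 log2 unit along L4 in both strains, were egg-5, clec-91, gln-6, T24D1.3, T21C9.13, cpg-4, mex-6 and chs-1. Likeness was the root mean square distance between standardised curves from 30 to 570 min, averaged over the strains, and it ran from 0.060 for egg-5 to 0.096 for chs-1. egg-5 is a pseudophosphatase of egg activation, cpg-4 a chondroitin proteoglycan, mex-6 the paralog of mex-5, and chs-1 the chitin synthase of the eggshell. Of the 7 themselves, pos-1 was nearest to their mean curve, at 0.094, and oma-2 farthest, at 0.39. Their ranks among the 2414 genes ran from 7 to 250. egg-5 rose by 1.77 log2 units along the fitted curve in tph-1 and 1.89 in N2, and clec-91 by 4.39 and 4.47.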

How the data were processed

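The values are RPM tables, 1 per strain, deposited by the authors. The unit comes from the names of these deposited tables. Reads were aligned with STAR 2.7.9a, per the submitters' processing notes. The build, annotation, counter and strand setting behind the tables are not given in the sources used. The RPM values of every library came out as whole reads for 100% of values within 0.1 reads. Library preparation followed SMART-seq2 per the series' design text, and the labels name no molecular identifiers, so depth covers counting error only.

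Tests ran on the 14293 genes present in both tables that reached 5 RPM in 10% or more of the animals, with limma 3.58.1 (with trend, R 4.3.3) on log2(RPM + 1), a scale that understates the change of low genes. P-values were adjusted by Benjamini-Hochberg over all of them at a threshold of 0.05. Splines had 4 degrees of freedom. Windows were early (under 200 min), middle and late (from 400 min). Set was a covariate within strains. The strain test used set levels, with at least 3 animals per set in a window test. The strain by spline interaction was run over animals, so animals of a set count as units there. Errors beside log2 changes are SE. edgeR 4.0.16 (quasi-likelihood) was run on the recovered reads as an alternative. Late against early it called 2162 genes up and 1068 down in tph-1, and 2194 up and 624 down in N2. Between strains it called 18 up and 0 down in tph-1. The fits were tested on simulated counts, drawn independently for each gene and with no differences between sets. Such counts cannot show how the fits handle a spread between sets.

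Nothing says whether animals of a set share a batch, so p-values over animals measure only the spread between these animals. The set numbers 1 to 4 occur in both strains and were not taken as pairs. Coordinates come from the Ensembl 115 annotation of WBcel235. Named genes are the 7 members, up to 3 called genes with the largest change of each list, any of a list asked for by role, and the 8 most alike curves. Single animals, puf-3, puf-7, cey-3 and the genes set beside them to complete a count of 5 or fewer were named after their values were seen. The members and lists were chosen with earlier results of these data known. No sequences are printed, and the promoter motif search was not run, since no sequence table was used here.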

Additional observations from a re-analysis of the deposited data

Results flagged for a closer look

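Among 35 groups of set levels (7 genes in tph-1 and in N2, over the whole stage and in windows with 4 or more sets), 4 held a set that stood far from the rest of its strain. In independent groups chance gives such a set in about 1 of 20. These groups are not independent, since they share sets and the genes vary together, so the rate here is not known.

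N2 set 6 was the highest N2 set for 3 of these. Its fitted log2 level was 5.095 for oma-2, where the other 7 N2 sets lay between 3.928 and 4.397. It was 4.576 for puf-5, where the others lay between 3.247 and 3.815, and 6.127 for spn-4, where the others lay between 4.819 and 5.377. Set 6 holds 20 animals, all from 379.6 min on, and among them the animal at 558.0 min with the highest values of 6 genes. tph-1 set 2 stood apart for rme-2, at 6.009 against 5.510 to 5.587 in the other 3 tph-1 sets.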

How the results depend on the processing

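All 7 genes changed along L4 in both strains in every setting run (13 in tph-1, 17 in N2). The median half-rise in tph-1 was 485 min with a spline of 3 df, 477 min with 6 df, 484 min with no set term, and 483 to 491 min when 1 set was left out. Half-way on the linear scale gave 518 min in tph-1 and 523 min in N2, the fitted curve reaching 10 RPM 294 and 188 min, and rescaled libraries 444 and 429 min. Late against early, 6 genes rose in tph-1 with rescaled libraries and 7 with edgeR on recovered reads. Over all 13 settings the tph-1 count ran from 2 to 7, and a pseudocount of 5 put pos-1 at 0.99 log2 units. In N2 the count was 3 with no set term, 3 without the animals of low germ line signal (chosen after seeing the data, as was leaving out the single animals named), and 3 to 7 when 1 set was left out. At 400 min the N2 count was 1 with a pseudocount of 5, with shifted bins and without animals of low germ line signal, and 1 to 3 with 1 set left out. At 300 min it was 0 to 2. At 500 min the tph-1 count was 2 with shifted bins and 0 to 3 with 1 set left out.

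For the strain difference over L4, 3 genes were called over animals with no set term, and 2 with sets 1 to 4, both with the set number as replicate block and with no replicate block. With the replicate block oma-1 was at -0.45 (adjusted p = 0.0154) and 27.8% of all genes were called lower in tph-1, while deviations of same-numbered sets correlated at -0.043 to 0.17 over the tested genes and tph-1 sets 2 and 3 correlated best with N2 sets of another number. No window and no alternative of the interaction gave a call. Values near 0 changed sign. Over L4, puf-5 was -0.012 with a pseudocount of 5, -0.0097 with sets 1 to 4 (blocked or not) and -0.047 without animals of low germ line signal, where oma-2 was -0.023 and rme-2 -0.057. rme-2 was -0.0020 with camera as a covariate, and pos-1 0.11 with rescaled libraries. In the early window rescaling gave 0.14 for mex-3, 0.082 for oma-1, 0.27 for pos-1 and 0.038 for spn-4, a pseudocount of 5 gave 0.013 for pos-1, and windows at 150 and 450 min gave 0.16 for pos-1 and -0.0088 for rme-2. In the middle window rescaling gave 0.13 for pos-1 and 0.28 for rme-2, and the other windows 0.13 for rme-2. In the late window rescaling gave 0.12 for puf-5. With 1 set left out, the ranges that cross 0 over L4 were -0.21 to 0.00058 for pos-1, -0.075 to 0.13 for puf-5 and -0.094 to 0.085 for rme-2. In the early window it was -0.33 to 0.20 for pos-1, and in the middle window -0.026 to 0.22 for puf-5 and -0.094 to 0.044 for rme-2. In the late window they were -0.38 to 0.040 for mex-3, -0.55 to 0.058 for oma-2, -0.64 to 0.084 for pos-1, -0.38 to 0.36 for puf-5, -0.11 to 0.25 for rme-2 and -0.50 to 0.18 for spn-4. The causes were not tested. Every animal had reads of all 7 genes, and 1 read was worth at most 2.28 RPM. Low early values still rest on few reads, with puf-5 down to 1.80 RPM in tph-1 and 2.53 RPM in N2 in the first bin. Depth also differed with minutes and strain. Median reads in N2 were 5042296 in the first bin and 2373403 in the last, against 1571854 and 1640694 in tph-1. The part of depth in these results was not tested.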
